A study of Sus scrofa with 6 samples.

Results

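The insulin-like growth factor (IGF) system of porcine granulosa cells (GCs) was described through 10 named genes, of which 8 were found by their Ensembl pig gene names or in the authors' table of changed genes, among the 17950 genes of the table. These were the ligand *IGF1*, the receptors *IGF1R* and *IGF2R*, the binding proteins *IGFBP4*, *IGFBP5*, *IGFBP6* and *IGFBP7*, and *IGFALS*, the acid-labile subunit. No gene of the table carried the name *IGF2* or *IGFBP3*, and these 2 genes were not analysed here. Of the 8 genes, 7 averaged at least 1 FPKM and 1, *IGF1R*, was below that level.

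GCs, which line the ovarian follicle and make oestradiol, were taken from follicles of pre-pubertal Landrace gilts and were cultured for 24 h in medium with 10% serum before infection. The pLVX-*RBP4* group received a pLVX-IRES-ZsGreen lentivirus carrying the porcine *RBP4* cDNA, and the CTRL group received the same vector without that insert, so cells of both groups were infected and carried the ZsGreen reporter. RNA was taken after 72 h, with 3 libraries per group, and how many animals gave the cells of each library is not stated. The authors deposited 1 FPKM value per gene and group, that is, fragments scaled to transcript length and to the number of mapped fragments, so that levels of different genes can be set side by side. The spread between the 3 libraries of a group is therefore not known, no test between the groups was possible, and every difference below is a description of 2 values.

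IGF1 and IGF2 signal through the receptor tyrosine kinase IGF1R. IGF2R, the cation-independent mannose 6-phosphate receptor, takes up IGF2 for degradation and carries lysosomal enzymes. The IGF-binding proteins hold IGFs outside the cell and limit or prolong their access to the receptor, and in the follicle IGFs act together with follicle-stimulating hormone on GC growth and steroid synthesis. IGFBP7 binds IGFs only weakly, and IGFALS binds complexes of an IGF with IGFBP3 or IGFBP5.

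For 2 of the members, *IGFBP5* and *IGFALS*, the study lists primers for RT-qPCR. Its text reports that RT-qPCR also found *IGFALS* lower in the pLVX-*RBP4* group, and it gives no such result for *IGFBP5*. The primers are written 5′ to 3′ in lower case. Their positions in the genome were not searched, so the part of each transcript that they cover is not given. The 4 primers are 20 or 21 bases long, with 47.6% to 55% G or C.
*IGFBP5* forward: aagaagctgacccagtccaag
*IGFBP5* reverse: gaccctgctcagattcctgt
*IGFALS* forward: tcaatgacaaccagatccagg
*IGFALS* reverse: tgccagacaagttcatgacg

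The introduced gene served as a check of the labels. *RBP4* had 1.1 FPKM in CTRL cells and 92.3 FPKM in pLVX-*RBP4* cells, a difference of 5.47 on the log2(FPKM + 1) scale. Of the 17 GC markers listed, 9 were found by name and all 9 averaged at least 1 FPKM. They include *CYP11A1*, the enzyme that starts steroid synthesis from cholesterol (673 and 669 FPKM in the CTRL and pLVX-*RBP4* groups), the FSH receptor gene *FSHR* (9.99 and 8.47 FPKM) and *GATA4* (59.2 and 57.8 FPKM). Several defining GC genes, such as *CYP19A1*, *FOXL2* and *AMH*, were not found by name.

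The 7 IGF genes averaging at least 1 FPKM spanned levels from 1.15 to 654 FPKM, and the binding proteins *IGFBP7* and *IGFBP5* held the highest of them. In CTRL cells the order was *IGFBP7* (464 FPKM), *IGFBP5* (430 FPKM), *IGF2R* (47.0 FPKM), *IGFBP4* (37.2 FPKM), *IGFBP6* (14.3 FPKM), *IGF1* (8.02 FPKM) and *IGFALS* (2.29 FPKM). The order was the same in pLVX-*RBP4* cells. Because the spread is not known, it cannot be said which neighbours in this order differ beyond replicate error. *IGFBP7* and *IGFBP5* ranked 219 and 232 by FPKM in CTRL cells among the 12382 genes averaging at least 1 FPKM, and 172 and 341 in pLVX-*RBP4* cells.

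**Figure D1:**
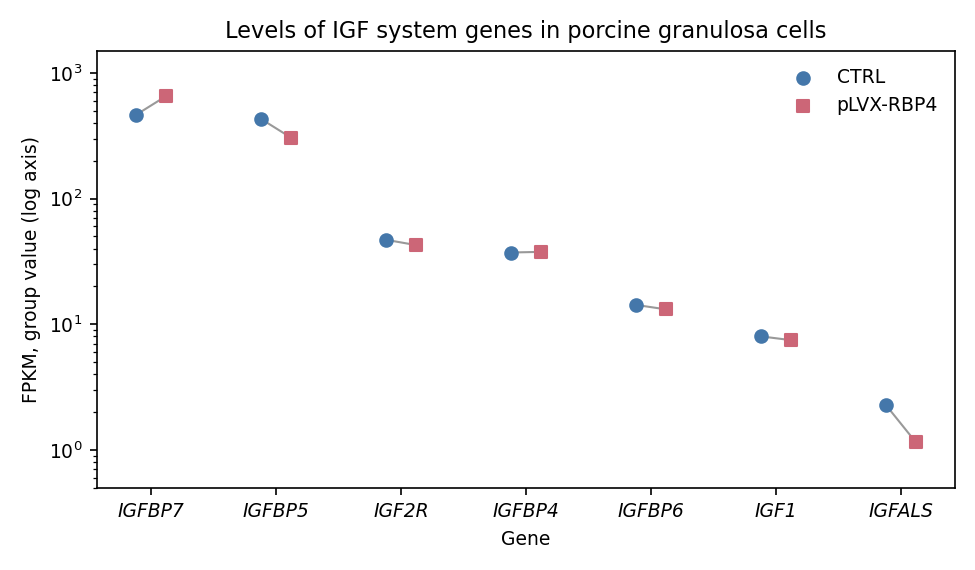
FPKM of the 7 IGF system genes averaging at least 1 FPKM, on a log axis, with 1 value per group (circles, CTRL; squares, pLVX-*RBP4*) and no error bars, since each group has a single value. *IGFBP7* lies higher and *IGFBP5* and *IGFALS* lie lower in pLVX-*RBP4* cells, while the lines of the other 4 genes are nearly flat.

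A gene was counted as different when FPKM + 1 was at least 25% higher in 1 group than in the other, a log2 difference of 0.32. By this rule 3 of the 7 genes differed, 1 higher (*IGFBP7*) and 2 lower (*IGFBP5* and *IGFALS*) in pLVX-*RBP4* cells. Of all 12382 genes averaging at least 1 FPKM, 1538 (12.4%) passed the same rule, 880 (7.11%) higher and 658 (5.31%) lower. Among the 1092 genes averaging at least 100 FPKM, the level at which *IGFBP5* and *IGFBP7* lie, the share was 11.2%. The 3 genes were already known to differ in these libraries when the gene group was set, so their count is not independent evidence about the group. The median difference of the 7 genes was -0.11 and that of all 12382 genes was 0.0014. The 3 genes stayed past the limit under each of the 4 scalings, whereas the split of all genes moved. With both groups rescaled to the same sum, 1469 genes were higher and 402 lower, and with that sum taken without the 10 most abundant genes, 426 were higher and 1949 lower.

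**Figure D2:**
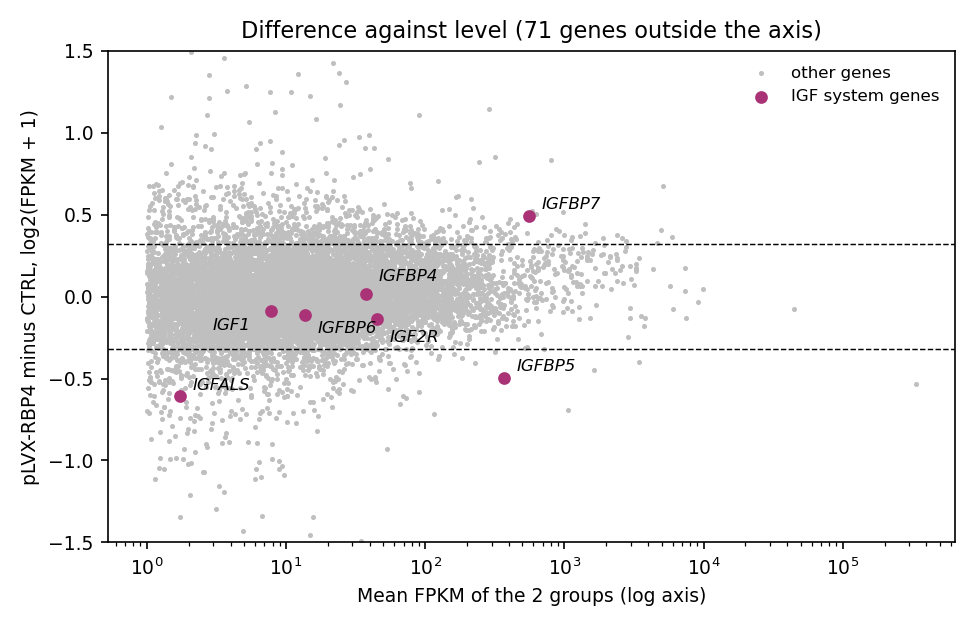
Difference between the groups (pLVX-*RBP4* minus CTRL, log2(FPKM + 1)) against the mean FPKM of the 2 groups (log axis) for 12382 genes (grey) and the 7 IGF system genes (purple), with dashed lines at ±0.32 and 71 genes outside the axis. *IGFBP7* (0.49), *IGFBP5* (-0.49) and *IGFALS* (-0.61) lie beyond the dashed lines, and the other 4 lie between them.

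Among the ligands, *IGF1* was measured at a low level, with 8.02 FPKM in CTRL cells and 7.48 FPKM in pLVX-*RBP4* cells. The difference of -0.09 on the log2(FPKM + 1) scale was equalled or exceeded by 64.7% of all genes. *IGF1* was lower in pLVX-*RBP4* cells under each of the 4 scalings tried, with differences of -0.22 to -0.018.

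Of the receptors, *IGF2R* had 47.0 FPKM in CTRL cells and 42.7 FPKM in pLVX-*RBP4* cells, a difference of -0.14 that 47.8% of all genes equalled or exceeded. *IGF1R* was listed at 0 in CTRL cells and at 0.011 FPKM in pLVX-*RBP4* cells, where 68 of the 16471 genes above 0 had a lower value. No fold change is given for it. On Sscrofa10.2 the gene carrying this name (ENSSSCG00000030560) lies on an unplaced scaffold rather than on a chromosome and spans 35538 bases there, and whether this stretch holds the whole gene was not tested. Its value is thus that of this gene model, and reads of other parts of *IGF1R*, if placed elsewhere, would not be in it.

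*INSR*, the insulin receptor gene, whose product also forms hybrid receptors with IGF1R, had 8.47 FPKM in CTRL cells and 5.80 FPKM in pLVX-*RBP4* cells. The difference was -0.48, it remained past the 0.32 limit under each of the 4 scalings, and it was larger than that of *IGF1* or *IGF2R*. *IRS1*, which couples both receptors to phosphoinositide 3-kinase, had 30.2 and 30.4 FPKM. *ESM1*, a secreted endothelial protein with an IGF-binding protein-like domain, had 2.75 and 3.10 FPKM.

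*IGFBP5*, a binding protein that GCs are known to make and that is held by the extracellular matrix, had 430 FPKM in CTRL cells and 305 FPKM in pLVX-*RBP4* cells. The second value is 0.709 times the first, a log2(FPKM + 1) difference of -0.49. Among the 425 genes whose mean FPKM was within 2-fold of that of *IGFBP5*, 1.88% differed by as much in either direction, and their median difference was 0.084. *IGFBP5* (ENSSSCG00000025924) lies on chromosome 15 of Sscrofa10.2, from 131680309 to 131684630. On the newer RefSeq assembly (Sscrofa11.1) its nearest protein-coding neighbours are *IGFBP2* and *TNP1*, neither found by name in the table, and the next is *TNS1*, a focal adhesion gene with 509 and 425 FPKM, a difference of -0.26.

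*IGFBP7*, a secreted protein of the vessel wall and stroma that is also made in follicles, had 464 FPKM in CTRL cells and 654 FPKM in pLVX-*RBP4* cells. It was 40.9% higher, a difference of 0.49, and 3.41% of the 264 genes within 2-fold of its mean FPKM differed by as much. Those 264 genes had a median difference of 0.085 in the values as deposited. For *IGFBP7* (ENSSSCG00000008913) the authors list a stretch of chromosome 8 of Sscrofa10.2, from 59014045 to 59139438. Its neighbour *POLR2B*, whose span overlaps it on the newer assembly, had 19.7 and 18.7 FPKM and a difference of -0.073. Whether the listed stretch also takes in *POLR2B* was not tested, and reads of overlapping genes may not be separated.

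*IGFBP4*, which blocks IGF action in the follicle until it is cleaved, had 37.2 FPKM in CTRL cells and 37.7 FPKM in pLVX-*RBP4* cells. Its difference of 0.016 became -0.12 after rescaling to a common sum without the 10 most abundant genes, so no direction is given for it. *IGFBP6*, which prefers IGF2 over IGF1, had 14.3 and 13.1 FPKM, a difference of -0.11 that 57.0% of all genes equalled or exceeded.

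The 4 binding proteins together had 946 FPKM in CTRL cells and 1010 FPKM in pLVX-*RBP4* cells. This sum leaves out *IGFBP2* and *IGFBP3*, which were not found by name. Its log2 ratio of 0.095 became -0.044 on a common sum without the 10 most abundant genes, so no direction is given for the sum. Its parts differed in opposite directions. The difference, pLVX-*RBP4* minus CTRL, was 190 FPKM for *IGFBP7* and -125 FPKM for *IGFBP5*. The share of *IGFBP5* in the sum was 45.4% in CTRL cells and 30.2% in pLVX-*RBP4* cells, and that of *IGFBP7* was 49.1% and 64.8%. *IGFBP4* held 3.94% and 3.73% of the sum and *IGFBP6* 1.51% and 1.30%. Without *IGFBP7* the sum of the other 3 was 481 FPKM in CTRL cells and 356 FPKM in pLVX-*RBP4* cells, a log2 ratio of -0.44.

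**Figure D3:**
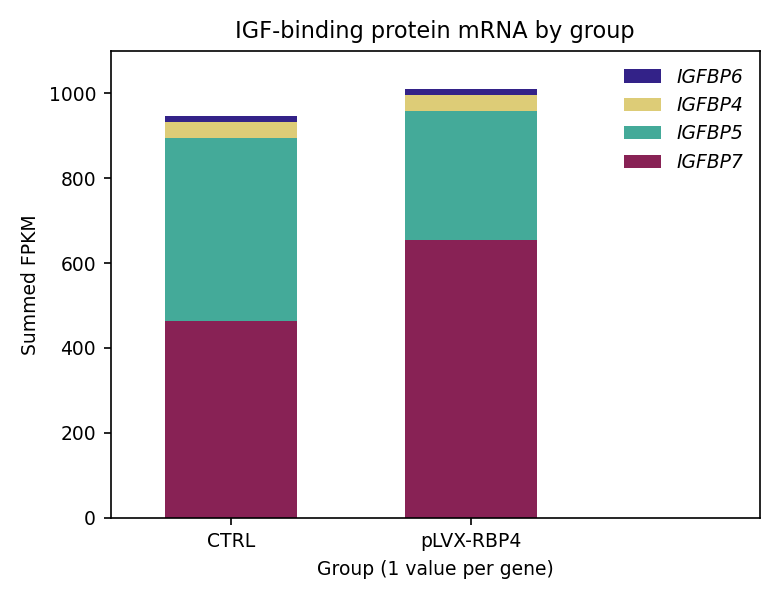
Summed FPKM of the 4 IGF-binding protein genes analysed, in each group (1 value per gene and group, no error bars). The parts of each gene are stacked from 0, and *IGFBP2* and *IGFBP3*, not found by name, are not included. The bars reach 946 and 1010 FPKM, while the *IGFBP5* part shrinks from 430 to 305 FPKM and the *IGFBP7* part grows from 464 to 654 FPKM.

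Ratios of genes within a group do not depend on how the group was scaled. There were 1.08 *IGFBP7* per *IGFBP5* in FPKM in CTRL cells and 2.15 in pLVX-*RBP4* cells, a 1.99-fold difference. The ratio of *IGFBP5* to *IGF1* was 53.6 in CTRL cells and 40.7 in pLVX-*RBP4* cells. *IGF2R* and *IGF1* kept nearly the same ratio, with 5.86 and 5.70.

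*IGFALS*, which is made mainly by the liver and extends the life of circulating IGF complexes, was the weakest of the 7 genes. It had 2.29 FPKM in CTRL cells and 1.15 FPKM in pLVX-*RBP4* cells, a difference of -0.61 on the log2(FPKM + 1) scale and of -0.99 as a log2 ratio without the added 1. At this low level larger differences were more common, and 5.48% of the 2227 genes within 2-fold of its mean FPKM differed by as much. *IGFALS* (ENSSSCG00000008013) lies on chromosome 3 of Sscrofa10.2, from 41634232 to 41637223. On the newer assembly its span overlaps that of an uncharacterised protein-coding gene not found in the table, and since strand-specific counting is not stated, reads of overlapping genes may not be separated. *NUBP2*, the neighbour on the other side, had 17.3 and 19.6 FPKM, a difference of 0.17. The ratio of *IGFBP5* to *IGFALS* was 188 in CTRL cells and 264 in pLVX-*RBP4* cells.

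With 2 values per gene, likeness to another gene can only mean a similar level and a similar difference. The named genes closest to *IGFALS* in the log2(FPKM + 1) of both groups were *NPY* (2.30 and 1.23 FPKM), *DMP1* (2.22 and 1.28 FPKM) and *ZNF660* (2.22 and 1.30 FPKM), at distances of 0.048 to 0.097. Close to *IGFBP5* were *EGR1* (359 and 299 FPKM) and *PGD* (380 and 349 FPKM), both at a distance of 0.26. Their differences, -0.26 and -0.12, were smaller in size than that of *IGFBP5*.

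Genes around the IGF system were taken from 6 lists of 105 genes in all, of which 77 were found and 70 averaged at least 1 FPKM. Of these 70 genes, 7 (10.0%) passed the 0.32 limit, 2 higher and 5 lower, against 12.4% of all genes. Besides *INSR* they belong to 4 lists, described next.

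Proteases that cleave IGF-binding proteins, with their inhibitors, made up 14 genes, 7 higher and 7 lower, with a median of -0.0023. On a common sum 10 of them were higher, and 2 without the 10 most abundant genes in it. *PAPPA*, the metalloproteinase that frees IGFs from IGFBP4 and IGFBP5, had 2.84 and 2.0 FPKM (difference -0.35), and *ADAM12*, which cleaves IGFBP3 and IGFBP5, had 179 and 141 FPKM (-0.35). *ADAM12* and *PAPPA* no longer passed the 0.32 limit under 1 of the 4 scalings, the rescaling to a common sum. *STC1* and *STC2*, inhibitors of PAPPA, had 39.6 and 31.6 FPKM and 95.0 and 93.1 FPKM. *HTRA1*, a serine protease that cleaves IGFBP5, was abundant, with 677 FPKM in CTRL cells and 802 FPKM in pLVX-*RBP4* cells (0.25). *TIMP1*, an inhibitor of metalloproteinases, was the most abundant of the list, with 7271 and 7459 FPKM.

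The CCN proteins share an IGF-binding protein-like domain. *CCN2* (3034 and 2896 FPKM) and *CCN1* (430 and 427 FPKM), both matrix-associated signalling proteins, were more abundant than *CCN4* and *CCN3*, which lay on opposite sides. *CCN4* had 4.47 and 6.14 FPKM (0.38) and *CCN3* had 2.57 and 1.83 FPKM (-0.34), and each passed the 0.32 limit under 3 of the 4 scalings.

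Downstream of the IGF1 and insulin receptors, 33 genes averaged at least 1 FPKM, with a median of -0.043, 11 higher and 22 lower. This split depended on scaling, since 20 were higher after rescaling to a common sum and 1 when the 10 most abundant genes were left out of the sum. *PTPN1*, the phosphatase that removes phosphate from both receptors, was the only one past the 0.32 limit, with 25.6 and 19.3 FPKM (-0.39, and -0.31 on a common sum). The most abundant were *RACK1*, a scaffold protein of the ribosome (1618 and 1694 FPKM), and *RHEB*, the activator of mTORC1 (212 and 248 FPKM). The transcription factor genes *FOXO1* (72.3 and 66.9 FPKM) and *FOXO3* (22.0 and 21.3 FPKM), which insulin and IGF signals hold out of the nucleus, were within the 0.32 limit.

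For the route that IGF2R travels, 16 genes of mannose 6-phosphate tagging and endosome sorting were measured, 8 higher and 8 lower, with a median of -0.0047, and 11 and 4 were higher under the same 2 rescalings. *VPS26A*, a retromer subunit, was the only one past the 0.32 limit, with 14.6 and 19.7 FPKM (0.41, and 0.28 when the 10 most abundant genes were left out of the sum), while its partner *VPS35* had 54.9 and 55.3 FPKM. *GNPTAB*, which starts the mannose 6-phosphate tag, had 173 and 152 FPKM, and *SORT1* and *AP1S1* had 118 and 112 FPKM and 60.1 and 64.7 FPKM. *IGF2BP2*, which binds *IGF2* mRNA, had 13.0 and 10.8 FPKM. The binding protein genes *IGFBP1* and *IGFBPL1* and the receptor gene *INSRR* were below 0.1 FPKM in both groups.

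**Figure D4:**
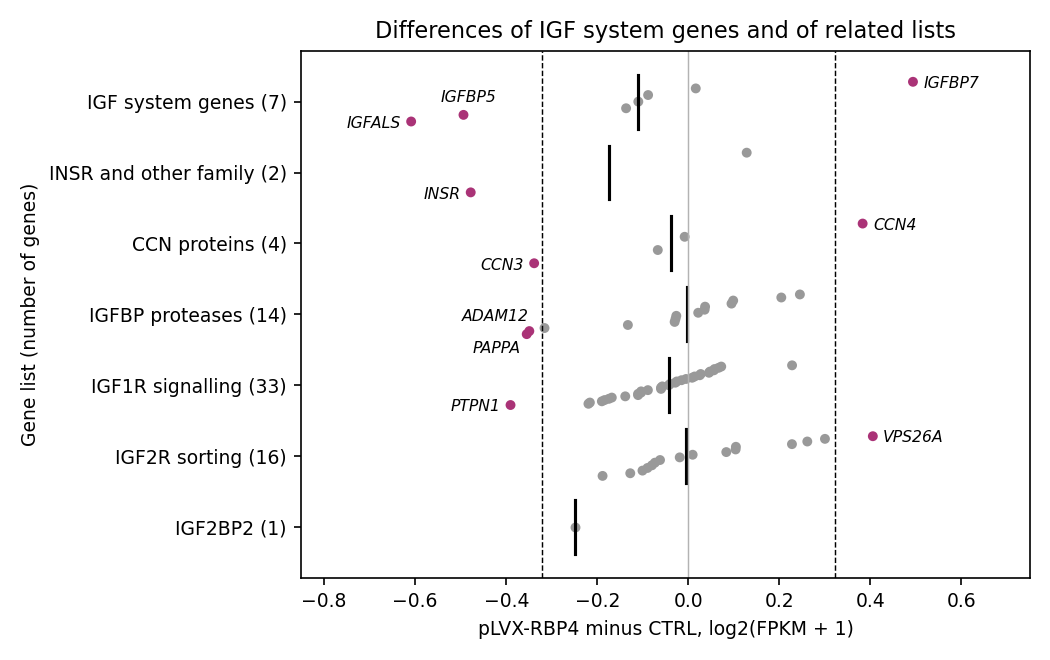
Difference between the groups (pLVX-*RBP4* minus CTRL, log2(FPKM + 1)) for each gene averaging at least 1 FPKM in the IGF system and in 6 related lists. Points in purple with names are past 0.32 in size (dashed lines), black bars are list medians, and height within a list only separates the points. In the IGF system 3 of 7 genes are past the lines and in the other lists 7 of 70.

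Markers of other cells were measured beside these results. *DCN* and *COL3A1*, genes of stromal cells and fibroblasts, had 169 and 210 FPKM (difference 0.316) and 525 and 611 FPKM (0.22). *LUM*, a gene of the same cells, had 6.82 and 9.10 FPKM (0.37) and passed the 0.32 limit. Its lowest value over the scalings was 0.26. The stromal markers *PDGFRB* and *PDGFRA* were lower, with 19.7 and 18.5 FPKM (-0.089) and 12.6 and 11.2 FPKM (-0.16). Of the 6 stromal markers found, 4 were higher and 2 lower under each scaling, and their summed level was 794 FPKM in CTRL cells and 931 FPKM in pLVX-*RBP4* cells. Of the 9 GC markers, 3 were higher and 6 lower, with a median of -0.035, and 6 and 2 were higher on a common sum with and without the 10 most abundant genes. Their summed level was 1510 and 1642 FPKM, of which *GJA1*, a gap junction gene, held 675 and 814 FPKM. Endothelial markers summed to 42.9 and 43.7 FPKM, and smooth muscle or pericyte markers to 2475 and 2600 FPKM. Of the 4 smooth muscle markers averaging at least 1 FPKM, 3 were higher and 1, *MYH11*, was lower. Its difference of -0.3207 was just within the limit, which is 0.3219 before rounding. All 4 markers were lower on a common sum without the 10 most abundant genes. Theca markers summed to 2.16 and 2.06 FPKM, of which *PTCH1* held 1.93 and 1.66 FPKM, with *INSL3* at 0 and 0.292 FPKM. The 5 leukocyte markers summed to 47.8 and 54.2 FPKM, of which *CD14* held 42.9 and 48.9 FPKM. *CD14* and *CD68* (4.02 and 4.59 FPKM), the 2 leukocyte markers averaging at least 1 FPKM, were higher under each scaling. *PTPRC* was lower, with 0.229 and 0.166 FPKM. *GDF9*, the oocyte marker found, had 3.36 and 3.51 FPKM. The part of other cells in the levels of *IGFBP5* and *IGFBP7* was not tested. In such bulk RNA, fewer cells of a type and less RNA per cell cannot be told apart.

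**Figure D5:**
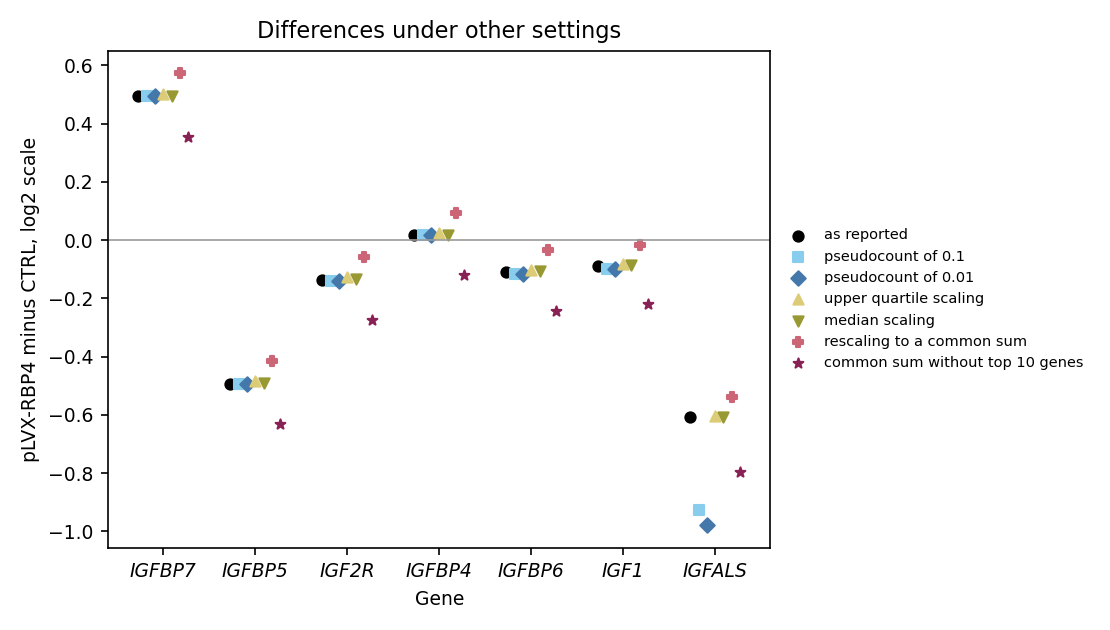
Difference between the groups (pLVX-*RBP4* minus CTRL) of the 7 IGF system genes, as reported (black circles) and under 2 other pseudocounts and 4 scalings, with 1 point per setting. *IGFBP7* stays between 0.36 and 0.57, *IGFBP5* between -0.63 and -0.41 and *IGFALS* between -0.98 and -0.54, while *IGFBP4* lies on both sides of 0.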

How the data were processed

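Paired-end reads of 6 libraries were aligned by the authors to Sscrofa10.2 with TopHat2, and Cuffdiff of Cufflinks gave the deposited FPKM values, 1 per gene and group. Tool versions, the annotation release and strand handling were not given in the sources used here, and the deposited table holds no read counts per gene, so no counting interval was computed. The study lists mapped reads per library, with more in each pLVX-*RBP4* library than in any CTRL library, and these totals were not used. Both columns of values were used. Column names C and R were matched to the CTRL and pLVX-*RBP4* groups through the authors' table of changed genes, whose fold changes and p-values were not used.

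Differences were computed as log2(FPKM + 1) of pLVX-*RBP4* minus CTRL, a scale that understates differences of weakly expressed genes, and were described for genes averaging at least 1 FPKM. With 1 value per group, no p-value, SD or SE was computed. Symbols came from a table of Ensembl gene names and, where absent there, from the authors' tables, for 10757 of 17950 genes. Coordinates and primers came from the authors' supplementary tables, and neighbouring genes from RefSeq on Sscrofa11.1, of which no coordinates are given. The IGF genes, the lists and the limit of 0.32 on that scale were chosen with earlier results of these data known. From each list, genes past the limit and the 3 with the highest mean FPKM were to be named, and for *IGFBP5* and *IGFALS* the 3 nearest genes in both values. Some genes that this rule names are not reported here. *IRS1*, *STC1*, *STC2*, *FOXO1*, *FOXO3*, *VPS35* and the neighbouring and marker genes were chosen after their values were seen. Alternatives were pseudocounts of 0.1 and 0.01, other limits on level and fold, scaling to a common upper quartile, median or sum, and a common sum without the 10 most abundant genes. The calculation was tested on simulated data. Python 3.11.15, numpy 2.4.6, pandas 2.3.3 and matplotlib 3.10.9 were used.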

Additional observations from a re-analysis of the deposited data

How the results depend on the processing

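No paired analysis was possible because the table holds 1 value per gene and group, and for the same reason no library could be left out and the planned linear model over libraries was not run. The count of 3 IGF genes past the 0.32 limit was 1 with a limit of 1.5-fold, which left *IGFALS*, and 2 with a mean FPKM of at least 5. It was 3 under the other 7 alternatives. The summed level of the 4 binding proteins, a log2 ratio of 0.095, was -0.44 without *IGFBP7* and -0.044 after rescaling to a common sum without the 10 most abundant genes. That rescaling shifted the median of all genes by -0.13, because a single gene without a symbol held 35.4% of the summed FPKM in CTRL cells and 25.8% in pLVX-*RBP4* cells. The difference of *RBP4*, 5.47, was 6.26 and 6.37 with pseudocounts of 0.1 and 0.01, and 5.61 after the same rescaling. The log2 ratio of *IGFBP7* to *IGFBP5* was 0.99 with and without a pseudocount of 1. Of the 48 values of single IGF genes under alternatives, those of *IGF1R* included, 37 changed by less than 0.1. All 7 genes averaging at least 1 FPKM changed by at least 0.1 on a common sum without the 10 most abundant genes. None of the 3 genes past the 0.32 limit changed direction. Read counts per gene and replicate spread, not known here, limit above all *IGFALS*, with 2.29 and 1.15 FPKM.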
